A study of Mus musculus with 4 samples.

Results

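The subject was 10 immediate-early transcription factor genes of the AP-1 and EGR families, Fos, Fosb, Fosl2, Jun, Junb, Jund, Egr1, Egr2, Egr3 and Atf3. They were taken by symbol, as a set drawn up with earlier results of these data known, and all 10 were found among the 32285 genes of both single-cell tables. The cells came from mouse tumors of B16, a melanoma line that is transplanted, and were sorted as CD4+ and CD8+ tumor-infiltrating T cells for droplet sequencing of RNA and T cell receptors. In the VISTA-KO mice, the floxed Vsir gene, which encodes the checkpoint protein VISTA, was deleted by Cre under the Cd4 promoter. Developing thymocytes use that promoter before they become CD4+ or CD8+ cells, so the deletion covers both kinds. The WT mice were littermates with the floxed gene and no Cre. Mice of both groups were given a peptide vaccine and antibody against CTLA-4, so no untreated sample is compared here. Each genotype was 1 pool of mice, read as 1 gene expression library and 1 receptor library. No spread between mice is known, no difference between genotypes was tested, and all intervals below are exact 95% intervals that cover counting error only.

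AP-1 is a dimer. A FOS protein pairs with a JUN protein, JUN proteins can pair with each other, and ATF proteins can take either place. Most of their genes, like the EGR genes, are switched on within minutes of T cell receptor or stress signals through MAP kinases. This needs no new protein synthesis, and these transcripts decay quickly. In T cells, AP-1 acts with NFAT at cytokine genes, and EGR proteins are zinc finger factors that report receptor strength. The same genes are also induced by the dissociation of tissue into single cells, which both pools went through.

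Because Jun went the other way from most of the group, the 250 bases before its start site are shown beside those of Fos, Junb and Fosl2, which were higher in VISTA-KO. The sequences are from RefSeq, build GRCm38.p6, 5′ to 3′ on the strand of the gene: Fos at chr12:85473640-85473889 (plus strand), Jun at chr4:95052223-95052472 (minus strand), Junb at chr8:84978749-84978998 (minus strand) and Fosl2 at chr5:32136222-32136471 (plus strand). Capitals mark a match to one of the motifs named after them.
Fos: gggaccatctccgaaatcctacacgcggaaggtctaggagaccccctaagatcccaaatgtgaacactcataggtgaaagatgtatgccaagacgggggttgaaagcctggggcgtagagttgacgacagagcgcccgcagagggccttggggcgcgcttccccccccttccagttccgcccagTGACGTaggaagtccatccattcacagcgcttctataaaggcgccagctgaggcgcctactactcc
Jun: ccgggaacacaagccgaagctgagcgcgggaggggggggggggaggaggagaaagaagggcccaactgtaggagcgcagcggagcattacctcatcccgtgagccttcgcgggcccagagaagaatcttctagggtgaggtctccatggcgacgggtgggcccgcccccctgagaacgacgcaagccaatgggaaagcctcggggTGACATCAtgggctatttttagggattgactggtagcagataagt
Junb: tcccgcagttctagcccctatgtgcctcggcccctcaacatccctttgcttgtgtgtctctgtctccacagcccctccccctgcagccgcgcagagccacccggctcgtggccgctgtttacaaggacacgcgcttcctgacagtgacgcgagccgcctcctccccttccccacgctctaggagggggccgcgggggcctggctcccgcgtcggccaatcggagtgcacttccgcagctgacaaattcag
Fosl2: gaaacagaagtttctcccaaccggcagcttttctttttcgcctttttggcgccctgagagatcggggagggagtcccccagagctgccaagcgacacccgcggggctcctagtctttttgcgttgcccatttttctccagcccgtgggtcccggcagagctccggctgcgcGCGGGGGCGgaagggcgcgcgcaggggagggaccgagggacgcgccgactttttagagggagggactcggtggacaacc

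Both strands of these windows were searched for the AP-1 element TGANTCA, the cyclic AMP response element (CRE) TGACGTCA, its variant TGACNTCA, its part TGACGT, the EGR element GCGNGGGCG and the CArG box of serum response factor. The variant includes the full CRE, which in turn holds the part. In Jun, the 1 match was TGACATCA, a CRE variant whose first base lay 45 bases before the start site, and 7.49% of all 32851 promoter windows of this length hold such a match. In Fos, the part TGACGT began 66 bases before the start site (6.47% of windows). Fosl2 and Fosb each held GCGGGGGCG, at 79 and 50 bases (4.7% of windows). The Junb and Jund windows held no match, and Atf3 held the part 8 bases before its start site. Several start sites of Egr2, some with windows that overlap, had a CArG box (1.47% of windows) at 72 to 133 bases. The overlapping Egr2 windows also held the part, at 56 to 117 bases. TGANTCA, found in 6.75% of windows, and the full CRE, in 1.55%, were in none of the 8 members searched. Egr1 and Egr3 were not searched, so nothing is said of their motifs. A match is a description of letters and was not linked to any level.

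Levels are summed UMIs (unique molecules) of a class of cells scaled to CPM, counts relative to all UMIs of that class, and values in pairs give WT first and VISTA-KO after it. A barcode needed 600 or more genes and less than 30% of its UMIs from mitochondrial genes, which left 10224 of 10337 WT and 9946 of 10085 VISTA-KO barcodes, with a median of 4723 and 4670.5 UMIs, and 144 barcodes occurred in both libraries. Cells were gated by their UMIs into CD8 cells (Cd8a or Cd8b1, no Cd4; 5549 WT and 4350 VISTA-KO), conventional CD4 cells (Cd4, no Foxp3; 1768 and 3048), regulatory cells (Cd4 and Foxp3; 1528 and 1270), Siglech cells (221 and 138) and C1q cells (124 and 74). The T cell gates carried the markers of their labels, but not these alone. A CD8 UMI was found in 32.7% of WT and 20.9% of VISTA-KO conventional CD4 cells and in 52.0% and 29.5% of regulatory cells. The Siglech cells carried the 6 plasmacytoid dendritic cell markers at a summed 11141 and 12861 CPM, against at most 1627 CPM in any other class, yet 42.5% and 30.4% of them had a Cd3 UMI. That next highest class was the conventional CD4 cells, at 1627 and 846 CPM. Of these, 107 WT and 65 VISTA-KO cells also met the Siglech gate, and 82 and 53 had no Cd3 UMI. Cells of over 1 gate were also left out as an alternative, and their part in the levels of this class was not tested. The C1q gate did not separate macrophages from T cells: 97.6% and 97.3% of its cells had a Cd3 UMI, and only 6 WT and 4 VISTA-KO cells met no other gate. The 5 melanoma markers summed to 10.5 and 199.6 CPM in WT and VISTA-KO CD8 cells, 209 and 15.9 CPM in conventional CD4 cells and 5.63 and 194 CPM in regulatory cells. Vsir itself was at 112 and 111 CPM in CD8 cells, 109 and 117 CPM in conventional CD4 cells and 112 and 117 CPM in regulatory cells. This checks nothing, since the reads may lie outside the deleted part, so the deletion was not seen in these data.

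Of the FOS subunits, Fos, the partner that defines AP-1 after stimulation, was higher in the VISTA-KO library in every class. WT CD8 cells held it at 348 CPM (interval 342 to 354) and VISTA-KO CD8 cells at 459.7 CPM (452 to 468), which is a ratio of 1.32 (1.29 to 1.35). In conventional CD4 cells it went from 692 to 935 CPM, and in regulatory cells from 414 to 686 CPM, a ratio of 1.65 (1.60 to 1.71). The largest step in Fos among the T cell classes was therefore in the regulatory cells. Fosb, a close relative of Fos, was at 80.8 and 94.9 CPM in CD8 cells, 132 and 162 CPM in conventional CD4 cells and 65.5 and 109 CPM in regulatory cells. Fosl2, which encodes FRA-2 and lacks the strong activation domain of FOS, was at 39.5 and 60.3 CPM in CD8 cells, 67.2 and 93.0 CPM in conventional CD4 cells and 48.5 and 81.4 CPM in regulatory cells. In regulatory cells, the ratios of the 3 FOS genes lay close together, at 1.65, 1.66 and 1.68.

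The JUN subunits parted. Jun, the classical partner of FOS and a substrate of JUN kinase, was lower in VISTA-KO CD8 cells, at 280.0 CPM (274 to 286) against 359 CPM (353 to 365), which is a ratio of 0.780 (0.758 to 0.802). In conventional CD4 cells it was at 564 and 448 CPM, a ratio of 0.795 (0.768 to 0.822). In regulatory cells it was at 333 and 331 CPM, a ratio of 0.994 with an interval of 0.952 to 1.04 that holds 1. Junb, which partners with BATF in effector and regulatory T cells, was higher in VISTA-KO in all of these classes, opposite to Jun in the CD8 and conventional CD4 cells. It was at 1380.45 and 1984 CPM in CD8 cells of WT and VISTA-KO, at 2228 and 4292 CPM in conventional CD4 cells and at 1543 and 3594 CPM in regulatory cells. The ratio of Junb was 1.44 (1.42 to 1.45), 1.93 (1.90 to 1.95) and 2.33 (2.29 to 2.37), so that Junb differed least in the CD8 cells. Jund, the subunit that resting cells keep, was at 1259 and 1565 CPM in CD8 cells, 1694 and 2406 CPM in conventional CD4 cells and 1704 and 2681 CPM in regulatory cells. Jund thus went with Junb, by smaller steps.

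Among the EGR genes only Egr1, a target of ERK and serum response factor, was measured above 20 CPM in the T cells. Egr1 was at 92.0 and 105 CPM in CD8 cells, a ratio of 1.15 (1.09 to 1.21), and at 245 and 312 CPM in conventional CD4 cells, a ratio of 1.28 (1.22 to 1.34). In regulatory cells Egr1 was at 115 and 233 CPM, which gives a ratio of 2.04 (1.92 to 2.16). Its share of the Egr1 plus Fos UMIs went from 20.9% to 18.7% in CD8 cells and from 21.7% to 25.4% in regulatory cells, so that Egr1 and Fos did not keep 1 proportion. Egr2 and Egr3, NFAT targets that restrain T cell activation, rested on few UMIs. In CD8 cells, Egr2 had 209 UMIs in WT and 272 in VISTA-KO (5.58 and 9.57 CPM), and Egr3 had 68 and 89 (1.82 and 3.13 CPM). In conventional CD4 cells, Egr3 had 9 UMIs in WT and 51 in VISTA-KO, a ratio of 3.80 with an interval of 1.85 to 8.79. Atf3, a stress-induced factor that pairs with JUN proteins and mostly represses, was at 14.0 and 15.6 CPM in CD8 cells (ratio 1.11, interval 0.977 to 1.26), 25.7 and 35.7 CPM in conventional CD4 cells and 17.5 and 23.3 CPM in regulatory cells.

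**Figure D1:**
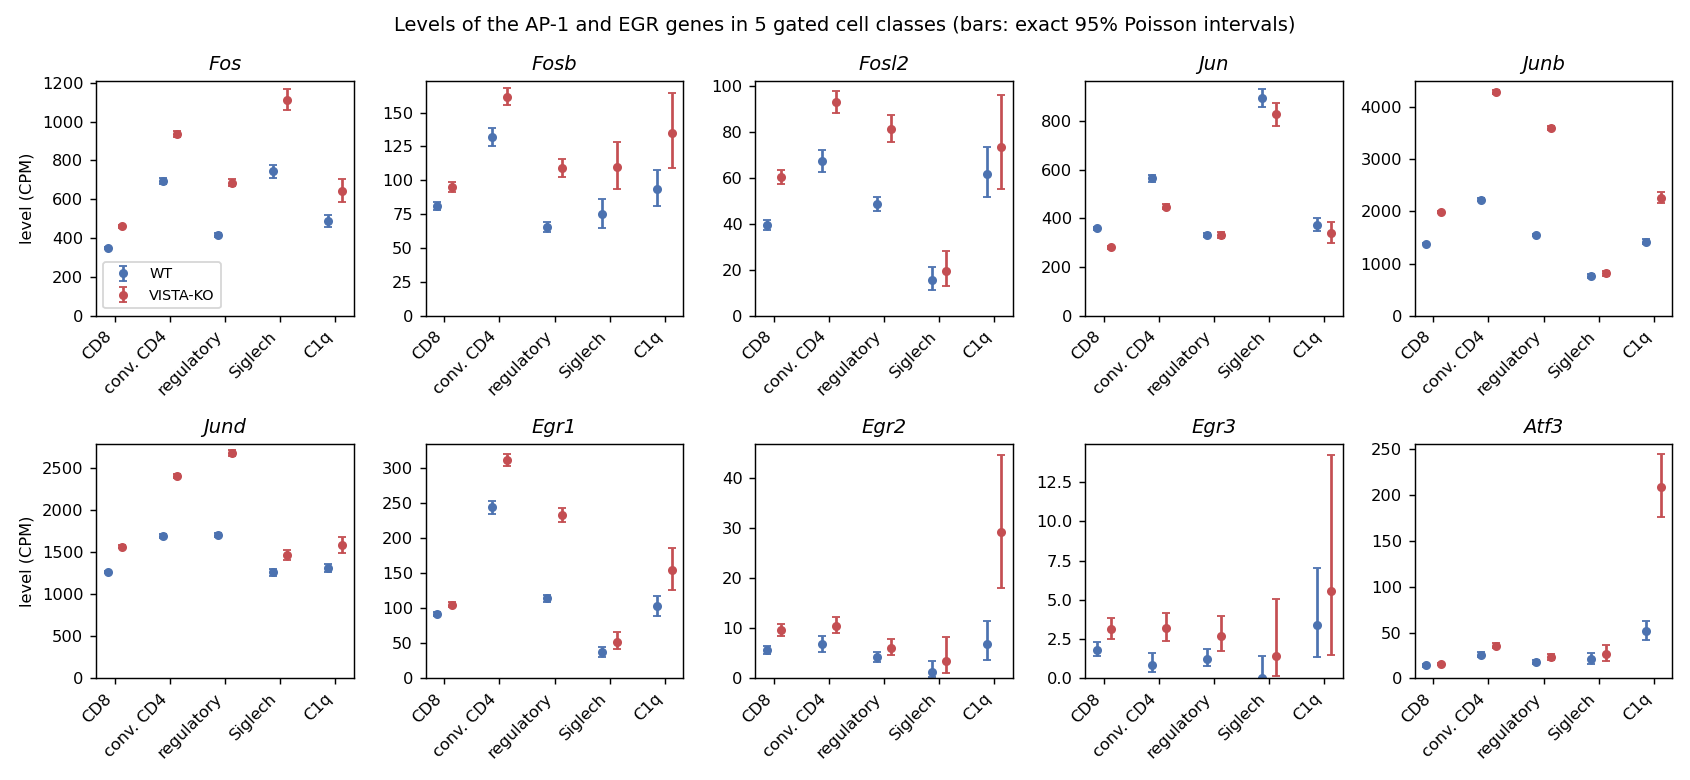
Level in CPM of each of the 10 genes (1 panel each, axis from 0) in the 5 gated classes of cells, WT in blue and VISTA-KO in red, with exact 95% Poisson intervals. Jun is lower in VISTA-KO CD8 cells (359 and 280.0 CPM) while Junb is higher (1380.45 and 1984 CPM), and the wide bars belong to genes with few UMIs.

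**Figure D2:**
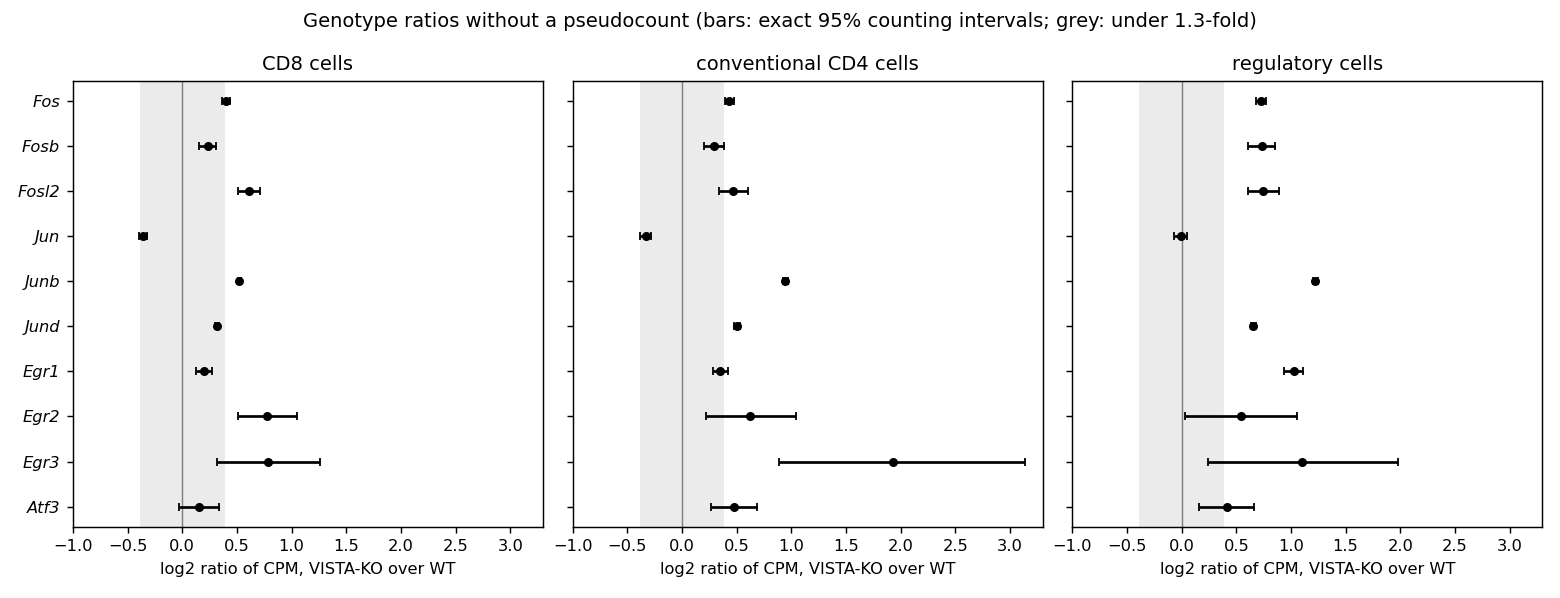
Log2 ratio of the CPM values, VISTA-KO over WT without a pseudocount, for each gene in CD8, conventional CD4 and regulatory cells, with exact 95% intervals, and in grey the zone under 1.3-fold. In the CD8 and conventional CD4 panels Jun is the only gene left of 0, and in regulatory cells its interval spans 0.

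To set the 10 genes against all others, log2 ratios were taken after adding 5 CPM, and a gene with at least 20 CPM in 1 library was counted as different past 1.3-fold. In CD8 cells, 3 of the 7 members at this level were past the fold on the higher side (Fos 0.40, Fosl2 0.55, Junb 0.52 on the log2 scale), against 1.92% of the 6083 genes, and 0 of 7 on the lower side, against 1.1%. Jun, at -0.35, stayed short of the fold and stood at percentile 1.25 of these genes. In conventional CD4 cells, 5 of 8 members were past the fold on the higher side (Junb 0.94, Jund 0.50, Fosl2 0.44, Fos 0.43, Atf3 0.41), against 2.59% of genes, and 0 on the lower side, against 4.14%. Only Junb and Jund of these 5 stayed past it in each of 3 alternatives, which left out dividing cells, left out cells with a CD8 UMI or weighted the gated groups equally in both libraries, and Jun, at -0.33, was then past the fold on the lower side. In regulatory cells, 6 of 8 were past it (Junb 1.22, Egr1 0.99, Fos 0.72, Fosb 0.69, Fosl2 0.69, Jund 0.65), against 4.87% of genes, and 0 on the lower side, against 4.17%. Without cells with melanoma RNA, an alternative added after seeing the data, the log2 ratio of Jun was -0.37, -0.33 and 0.00 in CD8, conventional CD4 and regulatory cells and that of Junb 0.53, 0.93 and 1.23. The median log2 ratio over the members at this level was 0.31, 0.42 and 0.69 in the 3 classes, beside -0.02, -0.04 and -0.01 over all genes.

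The small classes went the same way for Fos. In Siglech cells, Fos was at 745 and 1112 CPM, Fosb at 75.0 and 109.8 CPM and Egr1 at 37.1 and 52.4 CPM, and these were the 3 of 7 members past the fold on the higher side, against 7.35% of genes, with 0 on the lower side, against 9.26%. Junb was at 756 CPM (723 to 791) and 811 CPM (765 to 859), a ratio whose interval of 0.996 to 1.15 holds 1. Jun was at 894 and 827 CPM in the Siglech cells. Without the cells with a Cd3 UMI, which left 127 WT and 96 VISTA-KO cells, the log2 ratio was 0.57 for Fos, 0.31 for Junb, -0.18 for Jun and 0.13 for Egr1, an alternative chosen after seeing the data.

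In C1q cells, 6 of 9 members were past the fold on the higher side, against 15.1% of genes, and 0 on the lower side, against 14.7%. Atf3 was at 51.6 CPM (42.2 to 62.4) and 208 CPM (176 to 245) and Egr2 at 6.81 and 29.2 CPM from 14 and 21 UMIs, the highest levels of both genes in any class. After thinning to 2000 UMIs a cell, Egr2 was at 20.8 and 20.3 CPM. The thinned class held only 240000 and 148000 UMIs of all genes, too few to show a step of Egr2 or its absence. As the mean of each cell's CPM, Egr2 was at 7.46 and 26.5 CPM. The log2 ratio of Atf3 was 1.54 after thinning. Without cells of over 1 gate, which left 6 and 4 cells with 44905 and 57662 UMIs, 6 of the members were lower past the fold and 1 was higher. The share of all genes past the fold in so few cells was not computed, so this count says nothing particular about the members. The summed level of 8 macrophage markers in that gate was 3087 and 6361 CPM, and the 5 T cell markers were at 4315 and 3588 CPM. Their part in the Atf3 and Egr2 values was not tested.

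For each member, the class with the highest level was the same in both libraries, while the order below it differed for Fos, Fosb, Fosl2, Jun, Jund and Egr3. Junb, Egr1, Fosb and Fosl2 were highest in conventional CD4 cells, Jund in regulatory cells, Fos and Jun in Siglech cells, and Egr2, Egr3 and Atf3 in C1q cells. Several of these top places were within counting error of the next class. In WT these were Fosl2 (67.2 CPM beside 61.8 in C1q cells), Jund (1704 beside 1694 CPM in conventional CD4 cells), Egr2 (6.81 beside 6.78 CPM in conventional CD4 cells) and Egr3 (3.41 CPM from 7 UMIs beside 1.82 in CD8 cells). In VISTA-KO they were Fosb (162 CPM beside 134.8 in C1q cells) and Egr3 (5.56 CPM from 4 UMIs beside 3.18 in conventional CD4 cells).

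Lower in the order, the intervals of WT neighbours overlapped from the C1q to the CD8 cells for Jun (374 and 359 CPM) and Junb (1419.99 and 1380.45 CPM), and across C1q, Siglech and CD8 cells for Jund (1309, 1259.95 and 1259 CPM). They also overlapped across regulatory, C1q and CD8 cells for Egr1 (115, 103 and 92.0 CPM), and across C1q, CD8, Siglech and regulatory cells for Fosb (93.4, 80.8, 75.0 and 65.5 CPM). In VISTA-KO, C1q and regulatory cells overlapped for Jun (340.4 and 331 CPM) and Fos (645 and 686 CPM), C1q and CD8 cells for Jund (1583 and 1565 CPM), and C1q, Siglech and regulatory cells for Fosb (134.8, 109.8 and 109 CPM). For Fosl2, C1q cells overlapped with regulatory cells in both libraries, and with CD8 cells in VISTA-KO. For Egr2, Egr3 and Atf3, most neighbours below the top overlapped. With every cell thinned to 2000 UMIs, the highest class became conventional CD4 cells for WT Fos (855 CPM) and C1q cells for VISTA-KO Fosl2 (122 CPM).

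The contrast of Jun and Junb held within most T cell states. The T cells were split by gates that use none of the members into 16 groups, and 14 of these are reported here, 7 of CD8 cells, 3 of conventional CD4 cells and 4 of regulatory cells. Junb was higher in VISTA-KO in 14 of 14 groups, by 0.18 to 1.24 on the log2 scale, and Jund in 14 of 14, by 0.12 to 0.76. Jun was lower in 11 of 14, and in 10 of those its interval left out 1. The median log2 ratio over all genes at 20 CPM or more ran from -0.05 to 0.03 in these groups. Counting intervals are narrow for genes with many UMIs. Cd3e in all CD8 cells, at a ratio of 0.979 (0.967 to 0.991), also left out 1. How many of all genes do so in a group was not computed, so these counts have no share to be read beside. The lowest log2 ratio of Jun was -0.65, in CD8 cells with Pdcd1 and Havcr2 (310.2 and 196 CPM), markers of exhausted T cells. Jun was not lower in dividing conventional CD4 cells (287 and 311 CPM), in CD8 cells with Cx3cr1 or S1pr5, receptors of circulating effector cells (303 and 322 CPM), or in the regulatory cells left after the other gates (357 and 368 CPM), and each of these 3 intervals held 1. Cells in the dividing gate made up 27.2% of WT and 13.5% of VISTA-KO regulatory cells, and Fos, Jun, Junb, Jund and Egr1 were lower in that gate than in the whole class in both libraries. With the gated groups weighted by their pooled shares, the log2 ratio of Junb in regulatory cells was 1.12 and that of Egr1 0.83.

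The other members varied more among the groups. Fos was higher in 13 of 14, and the exception was again the CD8 group with Pdcd1 and Havcr2, at 246 and 215 CPM (ratio 0.873, interval 0.803 to 0.950). Fosl2 and Fosb were each higher in 13. Egr1 was higher in 13, from -0.25 on the log2 scale in CD8 cells with Pdcd1 and Tcf7 (144 and 120.1 CPM) to 1.06 in the remaining regulatory cells (159 and 338 CPM), and to 1.35 in regulatory cells with Il1rl1, of which there were only 30 and 70. CD8 cells that hold Pdcd1 with Havcr2 therefore showed the smallest step of Junb and a lower Fos, and the largest steps of Junb and of Egr1 were in regulatory groups. Atf3 was higher in 11 and ranged from -1.04 to 1.61.

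**Figure D3:**
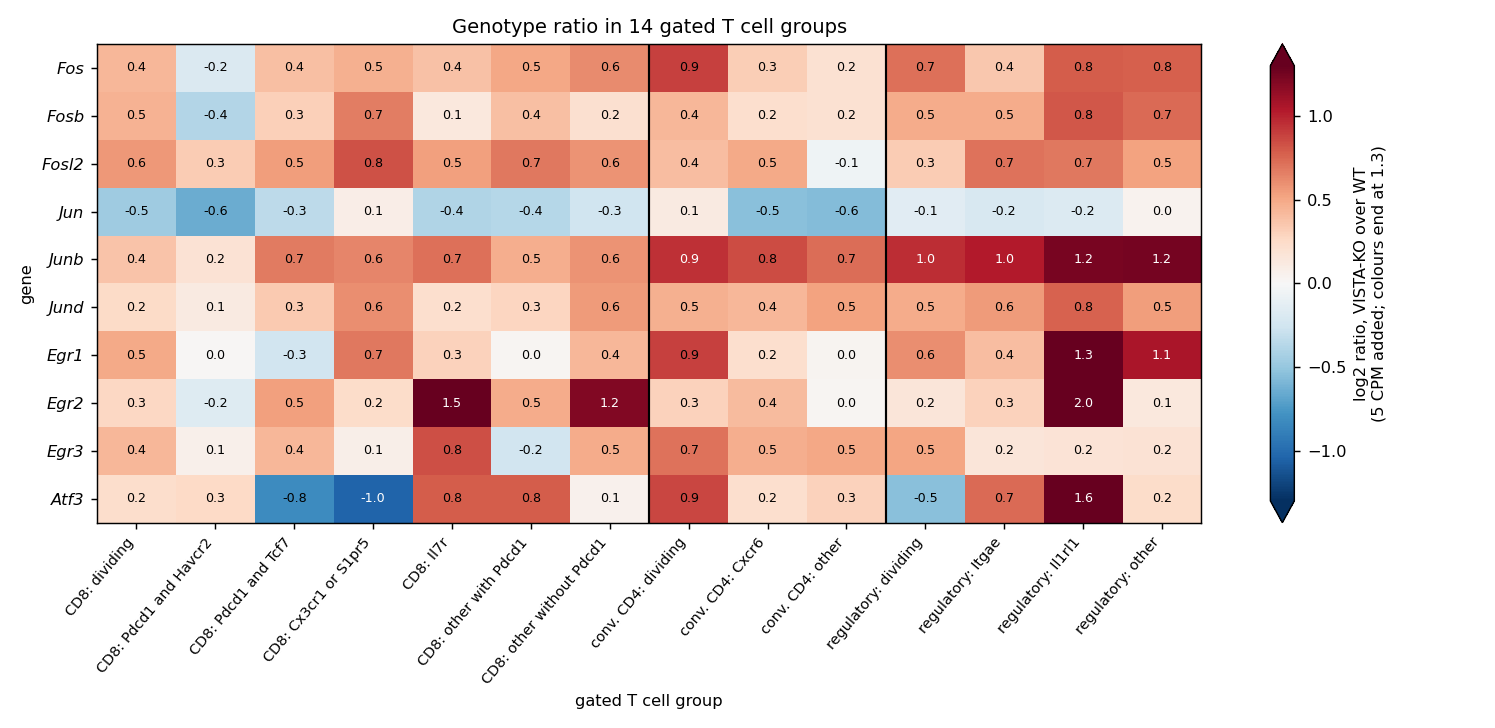
Log2 ratio of VISTA-KO over WT (5 CPM added) for each gene, in lines, in 14 gated T cell groups, in columns, with red for higher and blue for lower in VISTA-KO and colours that end at 1.3. Junb and Jund are red in 14 of 14 groups and Jun is blue in 11.

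A share between transcripts of 1 library does not depend on how the libraries are scaled. Of the Jun and Junb UMIs of CD8 cells, Jun made up 20.6% (20.3 to 21.0) in WT, against 12.4% (12.1 to 12.6) in VISTA-KO. The share was 20.2% and 9.45% in conventional CD4 cells and 17.7% and 8.43% in regulatory cells. In regulatory cells as a whole, whose Jun ratio had an interval that held 1, the lower share reflects the higher Junb. Within that class, Jun was lower in dividing cells (289 and 261 CPM) and in cells with Itgae (398 and 345 CPM), with intervals that left out 1. The intervals held 1 in cells with Il1rl1 (330 and 291 CPM) and in the remaining cells (357 and 368 CPM). In 14 of 14 gated groups the share was lower in VISTA-KO, with intervals that did not overlap. The share falls with a higher Junb as well as with a lower Jun. The groups in which Jun was not lower are among them, and there the lower share reflects the higher Junb. The WT groups ranged from 13.4% to 21.2% and the VISTA-KO groups from 5.67% to 13.1%. Of these, the widest gap was in conventional CD4 cells with Cxcr6, a receptor of tissue T cells, at 19.7% and 8.54%. The narrowest was in CD8 cells with Cx3cr1 or S1pr5, at 13.4% and 9.59%. Against Fos, the share of Jun was 50.8% and 37.9% in CD8 cells and 44.9% and 32.4% in conventional CD4 cells. In regulatory cells as a whole it was 44.5% and 32.5%, which again reflects the other gene, since Fos was higher there. In Siglech cells, Jun made up 54.2% and 50.5% of the Jun and Junb UMIs.

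**Figure D4:**
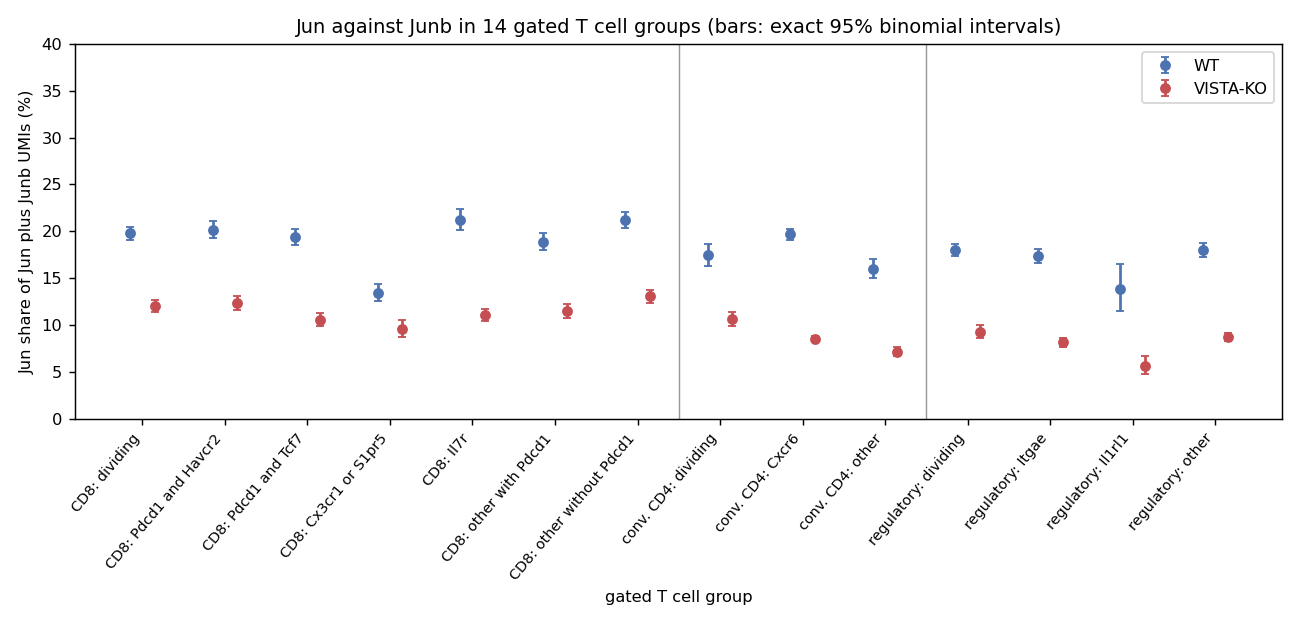
Share of Jun among the Jun plus Junb UMIs in percent, in 14 gated T cell groups, WT in blue and VISTA-KO in red, with exact 95% binomial intervals. The red point lies below the blue point in 14 of 14 groups, as in conventional CD4 cells with Cxcr6 (19.7% and 8.54%). These include groups in which Jun itself was not lower.

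The number of cells with a transcript and the amount per cell both entered these levels. Shares were compared after each cell was thinned to 2000 UMIs, which left out 290 WT and 186 VISTA-KO CD8 cells, 134 and 158 conventional CD4 cells and 45 and 51 regulatory cells with fewer. No class of these tables is known to lack these genes, so no background share could be set beside them. Of conventional CD4 cells, 85.8% in WT and 96.0% in VISTA-KO had a Junb UMI (91.5% and 98.1% before thinning, at a median of 4105.5 and 4223.5 UMIs), and those cells held 6.44 and 10.2 Junb UMIs on average. Junb was thus found in most cells of both libraries, with more molecules per cell in VISTA-KO. Of the CD8 cells, 32.2% and 42.7% had a Fos UMI and 34.1% and 31.0% a Jun UMI (51.3% and 61.9%, and 52.5% and 49.8%, before thinning, at a median of 4848 and 5224.5 UMIs). Of the regulatory cells, 13.8% and 17.0% had an Egr1 UMI, with 2.29 and 3.24 UMIs in each of these cells, while before thinning the shares were 34.7% and 33.1% at a median of 8838.5 and 5939 UMIs.

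Cells with Fos had Jun more often than cells without Fos. In thinned WT CD8 cells, 49.9% of the cells with a Fos UMI had a Jun UMI, against 26.6% of those without, and in VISTA-KO 40.8% against 23.7%. Fosb was found in 25.4% of WT CD8 cells with Fos and 7.69% of those without. Cells with Nr4a1, a target of receptor signals, had Egr1 in 21.6% against 12.8% in WT and in 21.6% against 12.2% in VISTA-KO. Cells with none of Fos, Jun and Egr1 made up 44.4% of WT and 38.1% of VISTA-KO CD8 cells. These shares describe cells of 1 library each and were not tested.

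The members were also followed across CD8 clonotypes, the cells that share both receptor chains. In WT, cells whose clonotype was seen once (902) had 523 CPM of Fos, 523 CPM of Jun and 1832 CPM of Junb, while the largest clonotype (1034 cells) had 209 CPM of Fos, 184 CPM of Jun and 1334 CPM of Junb. In VISTA-KO, cells with a clonotype seen once (1300) had 702 CPM of Fos, 372 CPM of Jun and 2702 CPM of Junb, and the largest clonotype (291 cells) had 151, 172 and 748 CPM. In both libraries the largest clonotype was therefore lower in Fos, Jun and Junb than the cells with a clonotype seen once. Egr1 did so in VISTA-KO, at 116 CPM in single cells and 67.5 CPM in the largest clonotype, but not in WT, at 96.3 and 95.7 CPM. Between the libraries, Jun was lower and Junb higher among the single cells as well. Junb was also higher in clonotypes of 2 to 19 cells (1277 and 1892 CPM) and in the other clonotypes of 20 or more cells (1095 and 1482 CPM). The largest clonotypes went the other way, with lower Junb (1334 and 748 CPM) and Fos (209 and 151 CPM) in VISTA-KO. So did the second largest, with Junb at 1232 and 864 CPM and Fos at 197 and 146 CPM. Clonotypes of 20 or more cells, 24 in WT and 12 in VISTA-KO, varied widely: Jun ran from 100.3 to 621 CPM (median 278) in the WT clonotypes and from 94.3 to 856 CPM (median 169) in the others. The second largest WT clonotype (318 cells) had 427 CPM of Jun and 197 CPM of Fos, and also 294 CPM of Hspa1a, a heat shock gene that the largest clonotype held at 70.2 CPM.

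Cells with heat shock RNA had Jun more often than cells without. Jun was found in 56.5% of thinned WT CD8 cells with an Hspa1a UMI and 31.3% of those without, and in 54.9% and 29.2% in VISTA-KO. This was not particular to Jun, since Fos was found in 45.7% and 30.6% and Fosb in 23.6% and 12.1% of the same WT cells. Over the 32 points of gated groups and libraries, which share libraries and depth, Pearson's r of Jun and Hspa1a was 0.07. Within 1 library it was 0.27 over the WT points and -0.30 over the VISTA-KO points. WT cells with a clonotype seen once had the most Jun of the clonotype sets, with 128 CPM of Hspa1a. Whether heat shock had a part in the Jun levels was not tested. Hspa1a itself was at 143 and 116 CPM in CD8 cells, 292 and 204 CPM in conventional CD4 cells and 174 and 120.2 CPM in regulatory cells. Cells were therefore split by 3 or more UMIs of Hspa1a, Hspa1b and Dnajb1, a split whose description by stratum was chosen after the values were seen. Such cells made up 24.8% of WT and 20.3% of VISTA-KO CD8 cells, 38.8% and 28.2% of conventional CD4 cells and 42.9% and 27.0% of regulatory cells. With 1 or more such UMIs after thinning, the shares were 38.4% and 36.4%, 51.6% and 48.1%, and 42.5% and 33.8%.

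Among CD8 cells with heat shock RNA, Jun was at 573 and 452 CPM, and among those without at 241 and 220.0 CPM, a log2 ratio of -0.34 and -0.13. Among conventional CD4 cells, Jun was at 759 and 606 CPM with heat shock RNA and at 361 and 360 CPM without, where the ratio of 0.997 had an interval of 0.943 to 1.05. Jun of conventional CD4 cells thus differed in the cells with heat shock RNA and not measurably in those without, and the difference between the strata was not tested. Among regulatory cells, Jun was higher in VISTA-KO in both strata, at 423 and 474 CPM and at 188 and 238 CPM, although the whole class showed none. At equal depth, with cells thinned to 2000 UMIs and split by 1 or more heat shock UMIs, this held only without heat shock RNA (206 and 257 CPM), since with it Jun was at 548 and 504 CPM (interval of the ratio 0.812 to 1.04). The thinned values of conventional CD4 cells were 886 and 567 CPM with and 362 and 364 CPM without heat shock RNA. Junb was higher in both strata of each class, by 0.36 and 0.62 on the log2 scale in CD8 cells, 0.82 and 1.02 in conventional CD4 cells and 1.17 and 1.27 in regulatory cells. In the cells without heat shock RNA, the log2 ratio was also higher in each class for Fos (0.61 against 0.29 in CD8 cells) and for Egr1 (0.79 against 0.25 in conventional CD4 cells). Other values went the other way. Among these, Fosl2 of conventional CD4 cells was at 0.34 without and 0.42 with heat shock RNA. In regulatory cells, Fosl2 was at 0.59 and 0.71, Fosb at 0.74 and 0.83 and Jund at 0.59 and 0.63. Handling of a pool and its genotype cannot be told apart with 1 pool each.

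**Figure D5:**
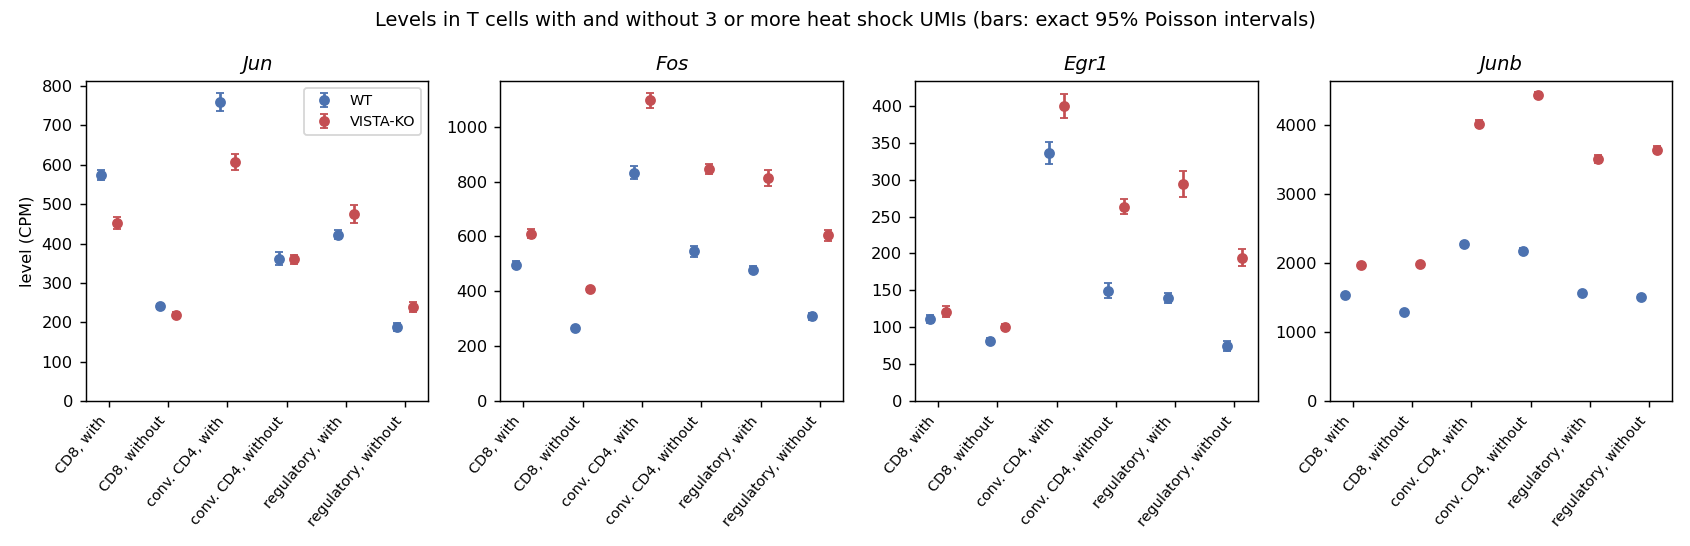
Level in CPM (axes from 0) of Jun, Fos, Egr1 and Junb in T cells with and without 3 or more UMIs of Hspa1a, Hspa1b and Dnajb1, WT in blue and VISTA-KO in red, with exact 95% Poisson intervals. Without heat shock RNA, Jun is at 361 and 360 CPM in conventional CD4 cells, while Junb is higher in VISTA-KO with and without it in each class.

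The rest of the pathway was read from lists of known genes, with the count of genes past 1.3-fold, to be read beside the shares over all genes (1.92% higher and 1.1% lower in CD8 cells, 2.59% and 4.14% in conventional CD4 cells, 4.87% and 4.17% in regulatory cells). Counts of 0 or 1 on lists of this length are near those shares. Of 17 MAP kinases and their relays to AP-1 at 20 CPM or more, 0 were past the fold either way in CD8, conventional CD4 or regulatory cells, with medians of -0.01, 0.03 and 0.08. Of the other AP-1 and ATF genes, 0 of 13, 0 of 14 and 1 of 13 were higher and none was lower, and the 1 was Nfil3 (104 and 143 CPM), named after its value was seen. Other immediate-early genes went with the members: 12 of 35 were higher and 1 lower in CD8 cells, 16 of 34 and 1 in conventional CD4 cells, and 24 of 33 and 1 in regulatory cells, with medians of 0.24, 0.34 and 0.61. The largest in CD8 cells were Nr4a1 (127 and 369.6 CPM) and Nr4a3 (31.7 and 78.2 CPM), orphan receptors induced by receptor signals, Nfkbid (54.5 and 123 CPM), a nuclear IκB protein, and Dusp5 (243 and 419 CPM), an ERK phosphatase. Zfp36l2, which speeds the decay of short-lived mRNAs, was the 1 lower gene, at 1464 and 1122 CPM.

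Cytokine genes known as AP-1 targets differed by class. In CD8 cells, 4 of 5 at this level were higher, Ccl4 (1196 and 2071 CPM), Xcl1 (136 and 235 CPM), Ifng (206 and 328 CPM) and Tnf (42.5 and 66.5 CPM), and none was lower. In conventional CD4 cells, Xcl1 (49.2 and 92.8 CPM), Tnf (80.3 and 134.8 CPM) and Ifng (214 and 298 CPM) were the 3 of 6 higher and Ccl3 (281 and 196 CPM) the 1 lower. In regulatory cells, where Fos, Junb and Egr1 were higher, Tnf was the 1 of 5 higher (34.1 and 61.0 CPM), and Ccl3 (159 and 69.3 CPM), Ccl4 (557 and 402 CPM) and Xcl1 (67.4 and 40.2 CPM) were lower. CD8 cell markers were lower in the same cells, with Cd8a at 339.7 and 156 CPM and Cd8b1 at 517 and 233 CPM in regulatory cells and Cd8a at 373 and 191 CPM in conventional CD4 cells, and their part in these chemokine values was not tested. Genes here and below that were not past the fold in CD8 cells were named after their values were seen. Of the EGR partners and genes linked to Egr2, 1 of 13 was higher and 1 lower in CD8 cells (Crtam, 30.6 and 42.7 CPM, and Nrn1, 27.8 and 15.8 CPM). Of those in conventional CD4 cells, 1 of 12 was higher (Fasl, 122 and 192 CPM) and 4 were lower (Lag3, Tnfrsf9, Nrn1 and Nrgn), and 0 of 12 were higher and 3 lower in regulatory cells, Lag3 (189 and 129 CPM), an inhibitory receptor, Nrn1 (43.2 and 25.1 CPM) and Nrgn (39.2 and 15.7 CPM). Of the NFAT and calcium genes in CD8 cells, 1 of 9 was higher (Irf4, 16.3 and 32.6 CPM, a factor that binds with BATF and JUN proteins) and 1 lower (Tnfrsf4, 136 and 72.9 CPM, the costimulatory receptor OX40), while in conventional CD4 and in regulatory cells 2 of 9 were higher, Irf4 and Il2ra in both, and 0 were lower. Of 10 heat shock genes in CD8 cells, 0 were higher and 1 was lower (Hspa1b, 121 and 85.5 CPM), while in conventional CD4 and in regulatory cells 1 of 11 was higher, Dnaja1 in both (309 and 421 CPM, and 298 and 402 CPM), and 3 were lower, with Hspa1a and Hspa1b in both.

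Over the 16 gated groups in both libraries (32 points, which share libraries, cell depth and cell states), the gene most like each member by Pearson's r of log2 CPM was looked up among 6031 others. For Junb these were Csrnp1 (r = 0.97), Gpr132 (0.96) and Kdm6b (0.92), for Fos they included Zfp36 (0.96) and Kbtbd11 (0.91), and for Jund Pim1 (0.94), Ifrd1 (0.93) and Csrnp1 (0.92). For Jun they were Rere (0.88), Taz (0.87) and Thada (0.86), none of them on the lists of immediate-early genes. Fosb was most like Btg2 (0.87), Fosl2 like Gpr132 (0.86), Egr1 like Runx1, Xylt1 and Klf6 (each 0.85), and the low genes Egr2, Egr3 and Atf3 reached 0.73, 0.68 and 0.67. Between members, r was 0.87 for Fos and Junb and 0.88 for Junb and Jund, but 0.35 for Jun and Junb. Within 1 library the value for Jun and Junb was 0.65 over the 16 WT points and 0.70 over the 16 VISTA-KO points, so that the pair ran along across cell states and parted between the libraries.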

How the data were processed

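Libraries of 1 pool of WT and 1 pool of VISTA-KO mice were aligned by the authors with Cell Ranger (5.0.0 in the file headers) to GRCm38 (mm10), and raw UMI counts per gene and barcode were deposited, without normalization. The deposited receptor contigs carry a count of UMIs and reads. Of the members, only Egr2 overlaps another gene in RefSeq, so its counts are uncertain. Python 3.11.15, numpy 2.4.6, scipy 1.17.1 and pandas 2.3.3 were used. CPM, log2 ratios (5 CPM added), exact Poisson and Clopper-Pearson intervals and a fold of 1.3 at 20 CPM or more were computed. All 10 members were named, and from each list the genes past the fold in CD8 cells, at most 4 each way, and the 3 genes most like each member. Members, lists and gates were chosen with earlier results of these data known. CD8 cells with the same pair of receptor chains were taken as 1 clonotype. Of the 16 gated groups, 2 are not reported here. Doublets were kept, and removed as an alternative. Alternatives changed weighting, depth, gates, scaling and cells left out. The scripts were tested on simulated data. Cells in no class (1363 WT, 1260 VISTA-KO) were left out, and 327 and 192 cells met several gates. With 1 library a genotype, the totals of 72016854 and 59817786 UMIs set the counting precision only.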

Additional observations from a re-analysis of the deposited data

Results flagged for a closer look

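Between gated groups of 1 class, some members were higher in VISTA-KO in 1 group and lower in another with counting intervals that left out 1, and none of these differences was tested. The share of all genes that part between groups in this way was not computed. Fos had a log2 ratio of 0.61 in the CD8 cells left without Pdcd1 and of -0.19 in those with Pdcd1 and Havcr2. Fosb had 0.67 in CD8 cells with Cx3cr1 or S1pr5 and -0.38 in those with Pdcd1 and Havcr2. Egr1 had 0.69 in CD8 cells with Cx3cr1 or S1pr5 and -0.25 in those with Pdcd1 and Tcf7. Atf3 had 0.79 in CD8 cells with Il7r and -1.04 in those with Cx3cr1 or S1pr5, and in regulatory cells 1.61 in the 30 WT and 70 VISTA-KO cells with Il1rl1 and -0.54 in dividing cells.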

How the results depend on the processing

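Of 748 log2 ratios recomputed under alternatives, 550 lay within the counting interval of the value reported. The levels in CPM depended more on the processing. After thinning or as the mean of each cell's CPM, 138 of 200 levels lay outside their counting interval. Junb of WT conventional CD4 cells, for example, was at 2228 CPM and after thinning at 2764 CPM. Of the 23 ratios past 1.3-fold, 14 were past it, on either side, under every alternative run, and 17 kept their sign. The 14 include Fosb and Junb of C1q cells, which were past the fold on the lower side in some alternatives. The share of all genes past the fold was computed for the full classes only. The counts of members under other sets of cells, which follow, therefore have no share beside them and are not results about the members. In CD8 cells, leaving out the largest clonotype put 1 member (Jun, -0.41) past the fold on the lower side. In conventional CD4 cells, 3 members instead of 5 were higher with the mean of each cell's CPM or after thinning, and 2 without dividing cells, without cells with a CD8 UMI (chosen after seeing the data) or with gated groups at pooled shares. Under these settings and with stricter gates 1 was lower, and stricter gates turned Atf3 to -0.08. In Siglech cells, 7 were higher without cells with heat shock RNA. Leaving out cells of over 1 gate, or doublets, left 10 WT and 14 VISTA-KO cells, with 1 member lower and the Jun share 23 percentage points higher. In C1q cells these settings left 6 and 4 cells, with 1 member higher and 6 lower, and turned Fos to -0.03, Fosb to -2.02, Junb to -0.53 and Egr1 to -2.07. Thinning turned Egr1 to -0.18 and Egr2 to -0.03, and 1 C1q member was lower after thinning or without dividing cells. Beyond the cells left, the cause was not tested. With no minimum level, the genes past the fold on the higher side were 1.58% in conventional CD4 and 2.94% in regulatory cells. The Jun share difference stayed below 0 in 56 of 58 alternatives. A member with no UMI in a library pair gave no value. No paired analysis was possible because each genotype has 1 library and no replicate numbers.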
